A study of Mus musculus with 8 samples.

Results

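Pecam1, Cdh5, Kdr, Flt1, Tek, Plvap, Vwf, Emcn, Cldn5 and Vegfa, 10 genes of the tumor vasculature, were described in 8 KPC tumors, 4 from WT hosts and 4 from C3-/- hosts. They were chosen by name, as 9 genes that mark blood endothelial cells and the gene of the growth factor that acts on those cells, and all 10 were found among the 29968 genes of the deposited table. None of the 10 differed between genotypes at an adjusted p below 0.05 in edgeR's quasi-likelihood test, and for each of them the values of the WT and C3-/- tumors overlapped. The genes varied from tumor to tumor by 1.58-fold (Vwf) to 3.51-fold (Cldn5) between the lowest and the highest tumor. Over the 8 tumors, the levels of Cdh5 and Kdr were the most alike (r = 0.920), and among the 10 genes Vegfa was most like its receptor Flt1 (r = 0.843), although no pair of the 10 genes passed an exact permutation test after adjustment.

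Endothelial cells line blood vessels, and their junctions, made in part by VE-cadherin, claudin-5 and PECAM-1, hold the vessel wall closed. Vascular endothelial growth factor A (VEGFA), which cells secrete when oxygen is low, signals through VEGFR2 (Kdr) to drive sprouting and survival, whereas VEGFR1 (Flt1) binds it tightly and acts largely as a decoy. Angiopoietins act on TIE2 (Tek) to stabilize or loosen vessels, and pancreatic ductal adenocarcinoma is known as a tumor with much stroma and few open vessels.

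The hosts were 12-week-old male C57BL/6J mice, wild type in the WT group and null for complement C3 in the C3-/- group. All received 250000 KPC FC1245 cells in 50 μL of PBS in the tail of the pancreas. FC1245 is 1 mouse pancreatic cancer line, and it keeps its own C3 gene, so that only the host cells of a C3-/- tumor lack C3. Whole tumors were homogenized for poly-A RNA sequencing, and no vessel or cell fraction was sorted. In bulk tumor RNA, fewer endothelial cells and less RNA per endothelial cell cannot be told apart. The labels do not state a batch, and p-values of the genotype comparison set the difference against the spread between these tumors.

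Counts summed to 13.3 to 23.4 M per tumor over 22174 to 25343 genes, and the 10 genes had 50 to 6004 counts in each tumor. C3 itself, the complement component deleted in the C3-/- hosts, had 210, 426, 226 and 324 CPM (counts scaled to a common TMM-normalized total) in WT tumors 1 to 4. It had 109, 134, 100 and 101 CPM in C3-/- tumors 1 to 4, all below every WT tumor (log2 fold change -1.42, SE 0.23, edgeR adjusted p = 0.933, DESeq2 adjusted p = 1.2e-05). Transcripts of skeletal muscle and acinar cells differed widely between tumors, and their source was not tested. Summed CPM of 11 skeletal muscle genes ran from 14.8 in WT tumor 2 to 4276 in WT tumor 4, and that of 11 acinar enzymes from 39.6 in C3-/- tumor 4 to 2010 in C3-/- tumor 1.

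Per base of the gene length in the deposited table, Vegfa was the most abundant of the 10 genes and Tek the least. The order of the genes rests on that length (16064 bases for Vwf and 9030 for Kdr). Its match to the transcripts made in these tumors was not tested. By mean CPM, Vwf was above Kdr, at 43.7 against 29.2 in WT tumors and 37.7 against 29.8 in C3-/- tumors. Vegfa had a mean of 57.9 ± 21.5 FPKM (SD, n = 8 tumors), Plvap 37.5 ± 8.18, Cdh5 14.0 ± 3.49, Cldn5 11.5 ± 5.17 and Pecam1 9.60 ± 1.96 (all SD, n = 8). Flt1 had 3.96 ± 0.920 FPKM, Emcn 3.73 ± 1.01, Kdr 3.23 ± 0.886, Vwf 2.51 ± 0.367 and Tek 1.57 ± 0.535 (all SD, n = 8). The defining endothelial genes were therefore present in every tumor, with Tek at 0.791 FPKM in its lowest tumor, WT tumor 3. Of the 9 pairs of neighbors in this order, 5 differed within tumors by an exact two-sided sign-flip permutation test on log2(FPKM + 0.1), with p adjusted over the 9 pairs. These were Vegfa over Plvap (adjusted permutation p = 0.0422, higher in 7 of 8 tumors), Plvap over Cdh5 (0.0234, 8 of 8), Pecam1 over Flt1 (0.0234, 8 of 8), Kdr over Vwf (0.0352, 7 of 8) and Vwf over Tek (0.0234, 8 of 8). Cdh5 and Cldn5, Cldn5 and Pecam1, Flt1 and Emcn, and Emcn and Kdr did not differ beyond their spread. Whether reads were counted by strand is not given in the sources used here, so the count of Plvap is uncertain where Gtpbp3 overlaps it on the opposite strand, a gene with 4931 counts over the 8 tumors. No other of the 10 genes overlapped another gene in the deposited annotation.

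**Figure D1:**
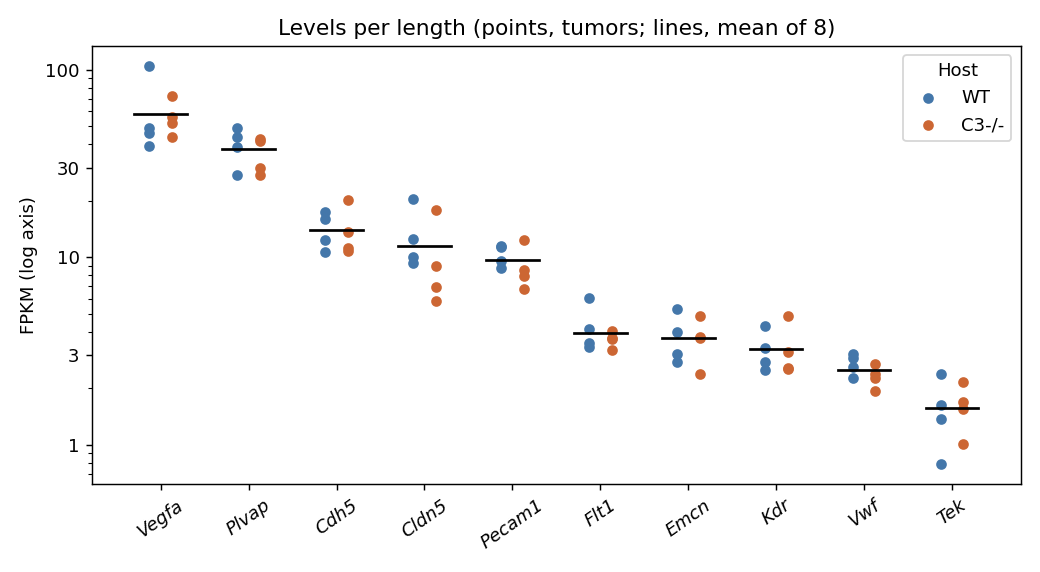
FPKM (log axis) of the 10 genes in each tumor, in order of their mean; points are tumors, blue from WT and orange from C3-/- hosts, and the line is the mean of all 8. The genes fall into 3 ranges, of which the lower 2 meet: Vegfa and Plvap above 27 FPKM in every tumor, Cdh5, Cldn5 and Pecam1 between 5.84 and 20.5, and the other 5 between 0.791 and 6.09.

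The genes of endothelial junctions did not differ between genotypes. Pecam1 (chromosome 11, 106545043 to 106641454, mm39), an adhesion protein of the junction that platelets and leukocytes also carry, had 54.7, 71.9, 60.2 and 71.7 CPM in WT tumors 1 to 4 and 53.7, 42.8, 49.6 and 78.2 CPM in C3-/- tumors 1 to 4. Its lowest 3 values were from C3-/- tumors, and its highest was also from a C3-/- tumor. The log2 fold change (C3-/- minus WT) was -0.20 (SE 0.19, 95% interval -0.63 to 0.22, edgeR adjusted p = 0.999; exact two-sided permutation p = 0.286). Cdh5 (chromosome 8, 104828257 to 104871143), which encodes VE-cadherin, had 51.9, 73.6, 45.4 and 68.2 CPM in WT tumors and 47.3, 46.0, 57.8 and 85.9 CPM in C3-/- tumors, so that the means of 59.8 ± 13.3 and 59.3 ± 18.5 (SD, n = 4) nearly coincided. The log2 fold change of Cdh5 was -0.01 (SE 0.23, 95% interval -0.52 to 0.49, edgeR adjusted p = 0.999). Cldn5 (chromosome 16, 18595597 to 18597012), the main claudin of endothelial tight junctions, had 14.1, 29.2, 17.9 and 13.4 CPM in WT tumors and 25.4, 12.9, 8.32 and 9.95 CPM in C3-/- tumors. One tumor of each genotype, WT tumor 2 and C3-/- tumor 1, stood above the rest. Cldn5 had the largest difference of the 10 genes and the widest interval, with a log2 fold change of -0.39 (SE 0.37, 95% interval -1.22 to 0.43, edgeR adjusted p = 0.999). Both high tumors decided its size, which was -0.84 without C3-/- tumor 1 and -0.0974 without WT tumor 2, neither past the threshold.

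Among the genes of VEGF signaling, the 2 receptors were highest in different tumors, and their r over the tumors was 0.275 (0.691 without WT tumor 4 and C3-/- tumor 4; Spearman's rho 0.619). Kdr (chromosome 5, 76093487 to 76139118), the main signaling receptor, had 25.1, 29.7, 22.8 and 39.4 CPM in WT tumors 1 to 4 and 23.02, 23.5, 28.2 and 44.5 CPM in C3-/- tumors 1 to 4. Tumor 4 was the highest of both genotypes, and the other 6 lay between 22.8 and 29.7. Flt1 (chromosome 5, 147498414 to 147662821), the decoy receptor, had 44.7, 82.9, 47.7 and 56.6 CPM in WT tumors and 43.9, 55.3, 49.7 and 50.9 CPM in C3-/- tumors. Here WT tumor 2 was the highest, and the other 7 lay between 43.9 and 56.6. Vegfa (chromosome 17, 46327919 to 46343295), the ligand of both, had 167, 452, 200 and 213 CPM in WT tumors and 241, 316, 224 and 191 CPM in C3-/- tumors. It was again highest in WT tumor 2, and the other 3 WT tumors lay below 3 of the 4 C3-/- tumors.

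None of these 3 genes differed between genotypes. The log2 fold change was 0.02 for Kdr (SE 0.25, 95% interval -0.52 to 0.57, edgeR adjusted p = 0.999) and -0.21 for Flt1 (SE 0.19, 95% interval -0.64 to 0.21, edgeR adjusted p = 0.999). For Vegfa it was -0.09 (SE 0.30, 95% interval -0.75 to 0.58, edgeR adjusted p = 0.999; exact two-sided permutation p = 0.971). WT tumor 2 decided the sign for Vegfa and Flt1, since without it the values were 0.33 and 0.0068, and Vegfa was also above 0 (0.0114) without C3-/- tumor 4.

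The DNA just upstream of the ligand and its 2 receptors is shown because these 3 genes form 1 ligand and receptor set. Over the tumors Vegfa had r = 0.843 with Flt1 and -0.143 with Kdr (0.484 without WT tumor 4 and C3-/- tumor 4), and the difference was not tested. The sequences are from the RefSeq promoter table (GRCm38.p6), placed by exact match on GRCm39 (mm39) and limited to bases outside GENCODE exons, from 250 bases before the RefSeq start site onward. They run 5′ to 3′ on the strand of the gene, which is the minus strand for all 3, with the capitals marking a match to CNGGAAG, a core bound by ETS factors, on either strand.
Kdr, chr5:76139119-76139365: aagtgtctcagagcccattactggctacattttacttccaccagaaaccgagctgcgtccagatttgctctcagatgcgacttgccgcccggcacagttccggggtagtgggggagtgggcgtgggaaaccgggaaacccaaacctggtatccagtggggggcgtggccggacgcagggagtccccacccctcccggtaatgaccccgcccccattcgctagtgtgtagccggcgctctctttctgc
Flt1, chr5:147662827-147663071: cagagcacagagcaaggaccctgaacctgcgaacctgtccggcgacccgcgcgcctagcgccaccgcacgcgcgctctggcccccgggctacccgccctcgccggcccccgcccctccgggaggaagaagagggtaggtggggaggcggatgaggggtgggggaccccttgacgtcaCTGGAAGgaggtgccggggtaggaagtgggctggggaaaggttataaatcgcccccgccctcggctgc
Vegfa, chr17:46343310-46343553: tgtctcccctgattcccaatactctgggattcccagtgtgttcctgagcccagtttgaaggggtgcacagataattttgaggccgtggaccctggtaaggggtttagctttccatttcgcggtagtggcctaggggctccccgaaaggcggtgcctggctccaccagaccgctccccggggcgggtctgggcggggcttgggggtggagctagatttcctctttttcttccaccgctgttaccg
The match in Flt1 began 73 bases before the start site, and a TATAAA followed 31 bases before it. Promoters of 6 of the 10 genes were in the table. In the 250 bases before the start site, CNGGAAG was found in 2 of the 6 (Flt1 and Emcn) against 26.2% of 27025 promoters. ACGTG, a form of the core that hypoxia-inducible factors bind, was found in 0 of the 6 against 16.6%. GCGTG, the other form, was not searched, although the printed Kdr sequence holds it, so the 0 is for ACGTG alone. TATAAA was found in 1 of the 6 (Flt1) against 12.97%. GGGCGG, the GC box, was found in 4 of the 6 (Kdr, Flt1, Cldn5 and Vegfa) against 32.9%. Matches on both strands were counted, and they describe the letters in this window only.

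**Figure D2:**
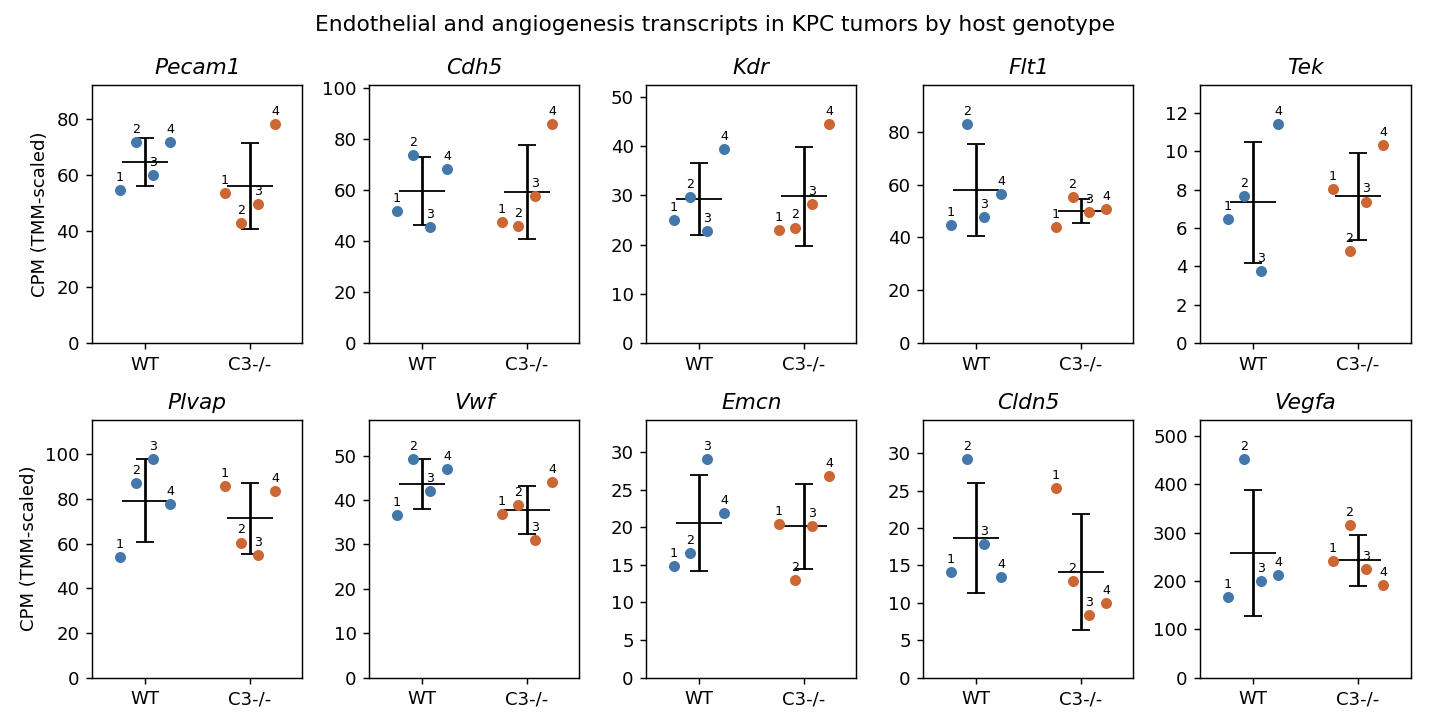
CPM (TMM-scaled) of each gene in WT (blue) and C3-/- (orange) tumors; the number above a point is its tumor, and the bar gives the mean ± SD of 4 tumors. The genotypes overlap in all 10 panels. Tumor 4 of both genotypes is high for Cdh5, Kdr and Tek, and WT tumor 2 is high for Flt1, Cldn5 and Vegfa.

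Tek (chromosome 4, 94627526 to 94763213), which encodes the angiopoietin receptor TIE2, was the lowest of the 10 genes and varied widely. It had 6.47, 7.69, 3.77 and 11.4 CPM in WT tumors 1 to 4 and 8.05, 4.82, 7.38 and 10.3 CPM in C3-/- tumors 1 to 4. As for Kdr, tumor 4 was the highest of each genotype. The log2 fold change was 0.05 (SE 0.34, 95% interval -0.71 to 0.81, edgeR adjusted p = 0.999), on 50 to 268 counts per tumor.

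Genes of the fenestrated and venous endothelium, and of its secreted products, did not differ either. Plvap (chromosome 8, 71950409 to 71964396), which forms the diaphragms of fenestrated capillaries, had 54.2, 87.2, 97.9 and 77.9 CPM in WT tumors and 86.1, 60.5, 55.1 and 83.8 CPM in C3-/- tumors. Emcn (chromosome 3, 137046828 to 137137946), a sialomucin of veins and capillaries, had 14.9, 16.6, 29.1 and 21.9 CPM in WT tumors and 20.4, 13.05, 20.2 and 26.8 CPM in C3-/- tumors. Both were highest in WT tumor 3, in which Cdh5, Kdr and Tek were lowest. Vwf (chromosome 6, 125523737 to 125663642), the clotting protein stored in endothelial cells and platelets, had 36.6, 49.2, 42.0 and 47.0 CPM in WT tumors and 36.9, 38.9, 31.1 and 44.1 CPM in C3-/- tumors. It was the steadiest of the 10 genes and had the smallest p of them. Log2 fold changes were -0.15 for Plvap (SE 0.21, 95% interval -0.61 to 0.31) and -0.03 for Emcn (SE 0.26, 95% interval -0.61 to 0.55). That of Vwf was -0.21 (SE 0.15, 95% interval -0.54 to 0.12, edgeR unadjusted p = 0.186; exact two-sided permutation p = 0.200). With 4 tumors against 4, the smallest p the permutation test allows is 0.0286.

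Over the 10 genes, 0 were called by edgeR (adjusted p below 0.05), where 0% of the 16610 genes tested were called, and 0 were called by DESeq2, where 0.0848% of 18864 genes were called. At an unadjusted p below 0.05, 0 of the 10 passed in edgeR, DESeq2 or limma on FPKM, against 3.03% of all genes tested higher and 2.07% lower in C3-/- tumors in edgeR, and 2.25% and 1.73% of 29900 genes in DESeq2. Their smallest adjusted p was 0.999 in edgeR, 0.9999 in DESeq2 and 0.992 in limma. The estimate was below 0 for 8 genes and above 0 for 2, with a median log2 fold change of -0.12 against -0.0001 over all genes tested. The 95% intervals set what the data could have missed. For Vwf the interval spanned 0.687- to 1.09-fold and for Cdh5 0.698- to 1.41-fold, whereas for Cldn5 it spanned 0.431- to 1.35-fold and for Tek 0.613- to 1.76-fold. A doubling lay outside the interval for all 10 genes, and a fall to 0.5-fold lay outside it for all but Cldn5.

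**Figure D3:**
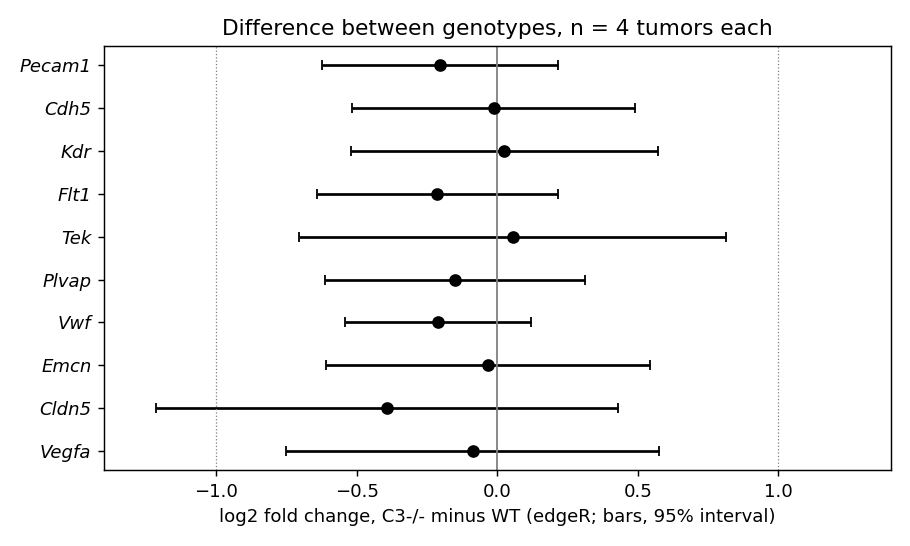
Log2 fold change (C3-/- minus WT) of each gene with its 95% interval from edgeR, 4 tumors per genotype; dotted lines mark a change of 1 on the log2 scale. Every interval includes 0, and that of Cldn5 alone reaches past -1, to -1.22.

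The sum of the 9 endothelial genes (all but Vegfa) was 303, 448, 367 and 407 CPM in WT tumors 1 to 4 and 345, 298, 307 and 434 CPM in C3-/- tumors 1 to 4. The highest and the lowest sum, in WT tumor 2 and C3-/- tumor 2, both came from tumors with few muscle transcripts. Summed CPM of the muscle genes was 1811, 14.8, 30.3 and 4276 in WT tumors 1 to 4. It was 2028, 23.8, 1655 and 3810 in C3-/- tumors 1 to 4. The highest muscle sums, in WT tumor 4 and C3-/- tumor 4, came with endothelial sums of 407 and 434 CPM. The part of muscle was not tested. Vegfa per endothelial transcript varied more, from 43.9% of the endothelial sum in C3-/- tumor 4 to 101% in WT tumor 2 and 106% in C3-/- tumor 2.

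Further genes of blood vessels were taken as lists. Of 30 other endothelial identity genes, all tested, 0 were called by edgeR or DESeq2, with 15 estimates above and 15 below 0 and a median log2 fold change of -0.0021. Tal1 and Sox17, transcription factors of the endothelial and blood lineages and of arterial endothelium, both had an unadjusted p below 0.05 in edgeR, beside 3.03% of all genes higher. In both, the lowest C3-/- value exceeded the highest WT value, which was so for 2.28% of genes tested (1.45% were lower without overlap). Tal1 had 3.86 to 7.91 CPM in WT and 8.12 to 12.3 in C3-/- tumors (log2 fold change 0.76, SE 0.26, edgeR adjusted p = 0.960, DESeq2 adjusted p = 0.464). Sox17 had 13.6 to 17.6 CPM in WT and 19.0 to 20.0 in C3-/- tumors (log2 fold change 0.32, SE 0.14, edgeR adjusted p = 0.971, DESeq2 adjusted p = 0.882). Tal1 is also a gene of erythroid cells and megakaryocytes, and neither gene passed the adjusted threshold. Ecscr, an endothelial surface protein, had the next smallest p, with a log2 fold change of -0.38 (SE 0.24, and -0.0999 without WT tumor 3).

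The other VEGF ligands and receptors (7 genes) and the angiopoietin and TIE genes (6 genes) held 0 called genes and 0 at an unadjusted p below 0.05. Pgf, the placental growth factor that binds Flt1, varied most, with 4.60, 44.6, 29.5 and 13.8 CPM in WT and 15.9, 11.8, 5.17 and 11.5 CPM in C3-/- tumors (log2 fold change -1.05, SE 0.58, and -0.52 without WT tumor 2). Vegfb, another Flt1 ligand, and Nrp1, a co-receptor of Kdr, had log2 fold changes of 0.26 (SE 0.22, and 0.0349 without C3-/- tumor 1) and 0.24 (SE 0.22, and 0.058 without WT tumor 3). Angpt2, which loosens vessels by acting on TIE2, had 8.46 to 15.0 CPM in WT and 7.30 to 10.8 in C3-/- tumors (log2 fold change -0.39, SE 0.23). Ptprb, the phosphatase that restrains TIE2, and Tie1 had log2 fold changes of -0.15 (SE 0.25) and -0.10 (SE 0.22).

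Of 12 Notch and ephrin genes, 11 were tested (Hey2 was too low) and 0 were called, with 10 estimates above 0, 1 below and a median of 0.15. The Notch targets Hes1 and Heyl each had a log2 fold change of 0.45 (SE 0.17 and 0.18), with overlapping groups. Both had an unadjusted p below 0.05 in edgeR, beside 3.03% of all genes higher. Dll1, a Notch ligand, had 0.28 (SE 0.17). Of 13 tip cell and sprouting genes, 4 estimates were above 0 and 9 below, with a median of -0.22. At an unadjusted p below 0.05, 0 passed in edgeR and 1, Apln, in DESeq2, beside 1.73% of all genes lower. Apln, a peptide of sprouting tips, had 11.3, 17.0, 38.1 and 24.3 CPM in WT and 10.9, 19.0, 12.5 and 14.6 CPM in C3-/- tumors (log2 fold change -0.67, SE 0.34, and -0.30 without WT tumor 3). Of 11 genes with angiostatic roles or homologs of them, 1, Vash2, passed at an unadjusted p below 0.05 in edgeR, beside 2.07% of all genes lower. Vash2, a vasohibin described as proangiogenic, had 28.4 to 44.0 CPM in WT and 23.9 to 30.4 in C3-/- tumors (log2 fold change -0.48, SE 0.16, edgeR adjusted p = 0.960). Adamts1 (0.33, SE 0.23) and Sema3f (0.27, SE 0.17), both inhibitors of VEGF action, had the next smallest p. With 1 tumor left out, Adamts1 ran from 0.16 to 0.47 and Sema3f from 0.15 to 0.42.

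Mural and lymphatic genes gave 0 called genes as well. Of 14 pericyte and smooth muscle genes, 4 estimates were above 0 and 10 below, with a median of -0.08. Acta2 and Tagln, contractile genes of smooth muscle and of fibroblasts, had -0.45 (SE 0.30, and -0.16 without WT tumor 3) and -0.45 (SE 0.36, and -0.26 without WT tumor 4). Rgs5, a pericyte gene, had 0.32 (SE 0.22, and 0.11 without C3-/- tumor 4). Of 8 lymphatic endothelial genes, 7 estimates were below 0, with a median of -0.61. At an unadjusted p below 0.05, 1 was lower in edgeR and 3 in DESeq2, beside 2.07% and 1.73% of all genes. The one in edgeR was Ccl21a, a chemokine of lymphatic vessels, on 6 to 66 counts per tumor (log2 fold change -1.33, SE 0.59, edgeR adjusted p = 0.971, and -0.88 without WT tumor 4). Reads of its near-identical copies may be split among them. Lyve1, a hyaluronan receptor of lymphatic endothelium and of some macrophages, had 20.6, 27.1, 19.1 and 33.5 CPM in WT and 20.0, 8.35, 6.997 and 23.2 CPM in C3-/- tumors (log2 fold change -0.78, SE 0.38, edgeR adjusted p = 0.971). Stab2, a scavenger receptor of sinusoidal and lymphatic endothelium, had an estimate above 0 at low counts (1.22, SE 0.59), and it was 0.43 without C3-/- tumor 1, the tumor with its highest value. Over all 106 distinct genes of these lists and the hypoxia list, 105 were tested by edgeR and 0 were called by edgeR or DESeq2. At an unadjusted p below 0.05, 4 higher and 2 lower passed in edgeR, beside the 3.03% and 2.07% of all genes, and 4 higher and 6 lower in DESeq2, beside 2.25% and 1.73%.

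Across tumors, the levels of the 10 genes followed each other only in part. Pearson's r was computed on log2(CPM + 0.1) over the 8 tumors for all 45 pairs, with exact permutation p adjusted over the 45. After adjustment 0 pairs passed, and 7 had an unadjusted permutation p below 0.05. Cdh5 and Kdr were the most alike (r = 0.920, exact permutation p = 0.0016, adjusted 0.0703; Spearman's rho 0.952, exact permutation p = 0.0011, adjusted 0.0513), and r was 0.971 without WT tumor 2 and C3-/- tumor 4, the tumors farthest from the median of Cdh5. Pecam1 and Cdh5 had r = 0.817, Kdr and Tek 0.800, Pecam1 and Kdr 0.770, Cdh5 and Tek 0.763, and Pecam1 and Vwf 0.762. After centering within genotype, r of Cdh5 and Kdr was 0.922. All pairs share the depth and scaling of the same libraries.

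Plvap was most like Vwf (r = 0.674), Emcn (0.656) and Pecam1 (0.619). Without WT tumor 1 and C3-/- tumor 3, the tumors farthest from the median of Plvap, r was 0.255 with Vwf and 0.775 with Emcn. Over all 8 tumors Plvap had r = 0.205 with Cdh5 and 0.163 with Kdr, and Cldn5 had -0.173 and -0.388. Of the 36 pairs among the 9 endothelial genes, 31 had r above 0, with a median of 0.38. Of the 9 pairs with Vegfa, 5 did, with a median of 0.12. Differences between these values of r were not tested.

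**Figure D4:**
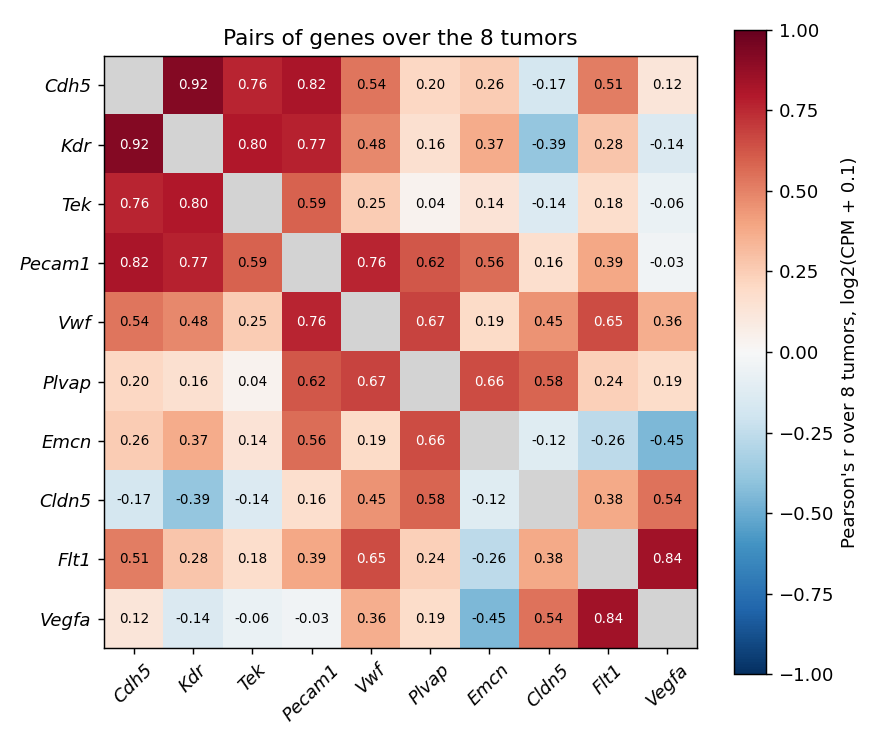
Pearson's r of log2(CPM + 0.1) over the 8 tumors for each pair of genes, from -1 (blue) to 1 (red), with the diagonal in grey. Cdh5, Kdr, Tek and Pecam1 form the upper left corner with r from 0.59 to 0.92, and Vegfa at the lower edge exceeds 0.8 with Flt1 alone.

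Among the 16600 other genes tested, those most like Cdh5 over the 8 tumors were Hmmr (r = 0.969), a hyaluronan receptor of the mitotic spindle, Ldb2 (0.951), a transcription cofactor, and Adgra2 (0.949), a receptor needed for vessel growth into the brain. They were followed by Gm5182 (0.945), Sulf1 (0.937), Rcsd1 (0.936), Dchs1 (0.936), Arhgap31 (0.936), Nt5dc3 (0.932) and Adam12 (0.930). None of these 10 was on the endothelial identity list, which does not hold every gene of endothelial cells. Sulf1 and Adam12 are expressed by fibroblasts. Over the 16600 genes r with Cdh5 ran from -0.997 to 0.969, and no p was computed for these likenesses. The median r with Cdh5 was 0.62 over the 30 endothelial identity genes, 27 of them above 0, and 0.017 over all other genes tested. Named after their values were seen, Mmrn2, an endothelial matrix protein, ranked 15th (r = 0.922) and S1pr1, a lipid receptor that steadies junctions, 32nd (r = 0.899), while Tm4sf1, Gpihbp1 and Ecscr, the 3 with r below 0, had -0.563, -0.291 and -0.122. The sum of 6 fibroblast genes was 7628, 10843, 7236 and 10185 CPM in WT tumors 1 to 4. It was 8784, 4297, 6356 and 11117 CPM in C3-/- tumors 1 to 4. Like Cdh5, it was highest in C3-/- tumor 4 and WT tumor 2. It was lowest in C3-/- tumor 2, whereas Cdh5 was lowest in WT tumor 3. No correlation of this sum with Cdh5 was computed, and its part in these likenesses was not tested.

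Vegfa, Flt1 and several hypoxia-induced genes were all highest in WT tumor 2. For Vegfa and Flt1, r was 0.843 (exact permutation p = 0.0205, adjusted 0.184; Spearman's rho 0.452, exact permutation p = 0.267) and 0.701 without WT tumor 2 and C3-/- tumor 1. The 10 genes of the hypoxia list were compared with Vegfa in the same way, a comparison chosen after its values were seen. Car9, the hypoxia-induced carbonic anhydrase IX, had 74.2, 174, 108 and 71.3 CPM in WT tumors 1 to 4 and 118, 128, 95.9 and 67.7 CPM in C3-/- tumors 1 to 4. Its r with Vegfa was 0.880 (exact permutation p = 0.002, adjusted over 10 genes 0.0203; Spearman's rho 0.833, exact permutation p = 0.0154, adjusted 0.123) and 0.630 without WT tumor 2 and C3-/- tumor 2, the tumors farthest from the median of Vegfa. Egln3, an oxygen sensor, had r = 0.863 (0.676 without those tumors). For Pdk1, Bnip3, Ndrg1 and Slc2a1, metabolic and stress genes, r was 0.839, 0.813, 0.801 and 0.788 over all tumors and -0.0448, 0.330, 0.0827 and 0.441 without those 2. Spearman's rho over all tumors was 0.524, 0.524, 0.690 and 0.667 for the same 4 genes (exact permutation p = 0.197, 0.197, 0.0694 and 0.0831). Hif1a and Epas1, the hypoxia-inducible factors themselves, which are controlled mainly as proteins, had r = 0.062 and 0.170. The other 2 genes of the list, Ankrd37 (r = 0.598) and Pfkfb4 (r = 0.314), had an exact permutation p of 0.114 and 0.463. Between genotypes, 0 of the 10 hypoxia genes were called, with 2 estimates above 0, 8 below and a median of -0.21. At an unadjusted p below 0.05, 0 passed in edgeR and 1, Bnip3, in DESeq2, beside 1.73% of all genes lower. Bnip3, Ndrg1 and Pdk1, with the smallest p, had log2 fold changes of -0.74 (SE 0.35), -0.62 (SE 0.38) and -0.36 (SE 0.24). Without WT tumor 2 these were -0.27, -0.0963 and -0.075.

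**Figure D5:**
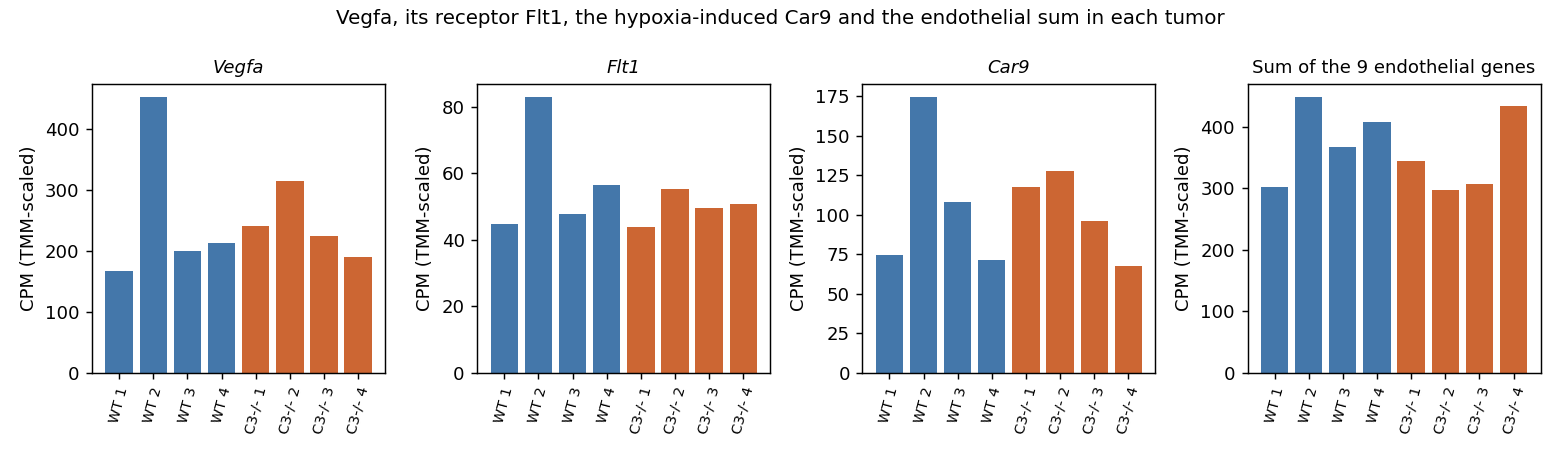
CPM (TMM-scaled) in each tumor (bars; blue from WT, orange from C3-/- hosts) of Vegfa, Flt1, Car9 and the sum of the 9 endothelial genes. WT tumor 2 is the highest in all 4 panels, and C3-/- tumor 2 is second for Vegfa (316) and Car9 (128) but lowest for the endothelial sum (298).

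Markers of other cells moved with some of these values, and their part was not tested. WT tumor 4 and C3-/- tumor 4 were the highest of their genotype for Kdr and Tek. They had the highest sums of skeletal muscle genes (4276 and 3810 CPM against 14.8 to 2028 in the others). The same held for 14 pericyte and smooth muscle genes (1231.5 and 1178 CPM against 468 to 868). WT tumor 2, with the highest Vegfa and Cldn5, had the highest sums of 6 adipocyte genes (637 CPM against 50.4 to 223 in the other tumors) and 6 islet genes (73.9 CPM against 0 to 2.19). C3-/- tumor 1, second for Cldn5, had the highest acinar sum. WT tumor 3, highest for Plvap and Emcn, had the highest sum of 6 platelet genes (103 CPM against 20.6 to 63.5), a cell type that also carries Vwf and Pecam1. By genotype, the platelet sum was 30.7 to 103 CPM in WT and 20.6 to 63.5 in C3-/- tumors, and 4 of the 6 genes were tested, with estimates all below 0. At an unadjusted p below 0.05, 1 platelet gene was lower in edgeR and 2 in DESeq2, beside 2.07% and 1.73% of all genes. Without overlap, 1 was lower, beside 1.45% of all genes. The sum of 6 leukocyte genes was 166 to 190 CPM in WT and 131 to 277 in C3-/- tumors. Of the 4 genes tested, 1 was higher, without overlap (2.28% of all genes), and 1 lower at an unadjusted p below 0.05 in edgeR. All genes tested gave 3.03% higher and 2.07% lower at that threshold. The sum of 7 liver genes was 74.1 to 217 and 79.5 to 136 CPM, with 2 of the 5 genes tested lower at that threshold in edgeR and 4 of the 7 in DESeq2, beside 2.07% and 1.73% of all genes. The 4 adipocyte genes tested had estimates below 0 (median -1.18) with none at that threshold. The sum of 6 epithelial genes was 5948 to 9895 and 5245 to 8882 CPM, with 0 of 6 at that threshold.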

How the data were processed

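RNA-seq of 8 KPC tumors, 4 WT and 4 C3-/-, was analysed. The authors aligned reads to mm39 and deposited raw counts per gene, size-factor-normalized counts (a signal) and FPKM. Their methods name STAR and HTSeq, and the submitters' processing notes name HISAT2 2.0.5, so the aligner is uncertain; DESeq2 1.20.0 is named in both. The strand setting is not given in the sources used here. The deposited FPKM rest on size-factor-scaled counts. The authors' fold changes, p-values and group means were not used, and the signal was used only to check the FPKM.

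Counts were tested with edgeR 4.0.16 (filterByExpr, minimum count 10, TMM, quasi-likelihood test, Benjamini-Hochberg over 16610 genes; R 4.3.3). Alternatives were DESeq2 1.42.0, its size factors in edgeR, no filter, limma 3.58.1 on log2(FPKM + 0.1), a replicate block, and each tumor left out. Exact tests used log2(CPM + 0.1). On simulated counts for 16610 genes with 200 changed, a log2 change of 1 was called for 33.0% of them by edgeR and 57.5% by DESeq2, and a log2 change of 2 for 87.0% and 92.5%. With no gene changed, edgeR called 1 gene and DESeq2 8. The genes and lists were chosen with earlier results of these data known. Named were the 10 genes, the 3 genes with the smallest p of each vascular or hypoxia list, any list gene called, and the 10 genes most like Cdh5. Counts are read pairs, not molecules, and depth was 13.3 to 23.4 M per tumor.

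Same-numbered tumors deviated from their group means with correlations of -0.03, 0.491, -0.356 and 0.594, so the numbers were not taken as pairs.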

Additional observations from a re-analysis of the deposited data

Results flagged for a closer look

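Single tumors stood apart from the other 3 of their genotype, by a ratio of gap to range above Dixon's 95% critical value, in 8 of 70 groups of 4 checked, where chance gives about 3.5. Vegfa in WT tumor 2 was 452 CPM against 167 to 213 in the other WT tumors. In the same tumor Pdk1 was 193 CPM (95 to 107 in the others), Sema3f 75.7 (51.7 to 53.3) and Vegfb 26.6 (17.8 to 18.7). Vegfb in C3-/- tumor 1 was 34.5 CPM against 19.8 to 21.5. Hes1 in WT tumor 3 was 97.9 CPM against 64.4 to 66.7, and Nrp1 there was 24.9 against 47.4 to 49.2. Nrp1 in C3-/- tumor 4 was 63.6 CPM against 44.1 to 47.3.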

How the results depend on the processing

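Under every alternative run, 0 of the 10 genes and 0 of the vascular and hypoxia list genes were called. Over all genes, edgeR called 0, DESeq2 16, edgeR with 1 tumor left out 0 to 4 (4 without C3-/- replicate 1), and edgeR without both WT replicate 4 and C3-/- replicate 1, an alternative chosen after seeing the data, 4. Of 140 log2 fold changes of the 10 genes under alternatives, 122 kept their direction and 18 turned, and of 349 for 25 other named genes 344 kept it. With 1 tumor left out in turn, the genes that changed sign ranged as follows: Cdh5 -0.25 to 0.10, Kdr -0.23 to 0.20, Flt1 -0.32 to 0.0068, Tek -0.16 to 0.35, Emcn -0.20 to 0.18, Vegfa -0.25 to 0.33, Ptprb -0.35 to 0.0597, Tie1 -0.26 to 0.0374. Those that kept their sign also moved, Pecam1 from -0.41 to -0.0948, Plvap from -0.30 (without WT replicate 1) to -0.0328 (without WT replicate 3), Vwf from -0.295 to -0.14 and Cldn5 from -0.84 to -0.0974. Without both tumors named above, Cdh5 was 0.15, Ptprb 0.20 and Vegfb -0.0226. On FPKM with limma, Kdr was -0.0007. With the replicate number as a block (replicate block), Vegfa was 0.003, and 0 of the 10 genes were called. No pair of the 10 genes passed the adjusted threshold over all 8 tumors, and with 1 tumor left out 0 to 1 pairs did (1 without WT replicate 2 and 1 without WT replicate 4). The median over all genes moved by at most 0.015 under any setting. Of the 10 genes, Tek had the fewest counts, with 50 in WT replicate 3, and 4 tumors per genotype limit the precision of every gene.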
